A study of Mus musculus with 9 samples.

Results

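The genes described here are 10 genes that mark or specify primordial germ cells (PGCs), the embryonic precursors of eggs and sperm: Prdm1, Prdm14, Tfap2c, Dppa3, Ifitm1, Ifitm3, Nanos3, Dnd1, Kit and Ddx4. They were listed by symbol as genes of a fate that depends on bone morphogenetic protein 4 (BMP4), and all 10 were found among the 22180 gene symbols that have a probe set naming a single gene. Each of the 10 has 1 such probe set, so no choice between probe sets had to be made. Expression was measured on Affymetrix Mouse Gene 2.0 ST arrays in embryoid bodies (EBs), the aggregates in which embryonic stem cells begin to differentiate. The EBs came from a single C57BL/6 embryonic stem cell line and formed in hanging drops in medium free of leukemia inhibitory factor, BMP-4 and the GSK3b inhibitor, the factors that had kept the cells pluripotent, and this withdrawal was common to all groups. From day 3, AgNP-treated EBs were kept for 24 h with citrate-coated silver nanoparticles of 20 nm at 5.0 µg/ml, Ag+-treated EBs were kept for 24 h with silver ions from silver acetate at 5.0 µg/ml, and control EBs were kept for the same time without silver. Each group comprises 3 arrays of 3 biological replicates. EBs are a mixture of differentiating cells made outside an embryo, and an array measures their pooled RNA, so that fewer cells of a type and less RNA per cell cannot be told apart.

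In the mouse embryo, PGCs arise from a few cells of the epiblast that receive BMP4 from the neighbouring extraembryonic ectoderm, after WNT3 has made them competent. The signal passes through BMP receptors and the SMAD1 and SMAD5 proteins and leads to expression of Prdm1, Prdm14 and Tfap2c, whose products shut off the somatic programme, restore parts of the pluripotency network and start the erasure of DNA methylation. The newly formed PGCs then express Dppa3 and Nanos3, migrate and survive with the help of KIT, and switch on Ddx4 once they reach the gonad. EBs can form PGC-like cells, usually at low frequency unless BMP4 is supplied.

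The deposited values are robust multi-array average (RMA) signals on the log2 scale, where a difference of 1 is a doubling. The 9 arrays were alike in distribution, with medians of 5.03 to 5.08 over the 25341 named probe sets, and correlated at 0.994 to 0.996 within groups and at 0.991 to 0.996 between groups. On the second principal component AgNP replicate 1 (19.9) and control replicate 3 (-20.6) lay at opposite ends, with the other 7 arrays between -3.68 and 5.75, and results that rest on these arrays are also given without them. The stem cell genes Pou5f1, Sox2 and Nanog had mean signals of 6.14, 7.72 and 8.20 in AgNP-treated EBs, 5.93, 7.70 and 7.29 in Ag+-treated EBs and 6.09, 7.49 and 7.95 in control EBs, against a median of 5.06 for the means of all named probe sets. The mean signal of 0 of the 10 PGC genes lay under the first quartile of the named probe sets (3.72), and that of 6 lay under the median. This describes probe signal, which does not rank genes by RNA, and no detection call accompanies the values used here. Whether the low signals stand above background was therefore not tested.

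A limma fit with 3 group means over all 9 arrays gave the tests, and a gene was called when its p, adjusted by the Benjamini-Hochberg method over all named probe sets, was under 0.05. None of the 10 PGC genes was called in any comparison. With AgNPs 0 of 10 were called, where 0.0868% of all named probe sets were (0.0355% higher and 0.0513% lower). With Ag+ 0 of 10 were called, where 2.28% of all named probe sets were (0.813% higher and 1.47% lower), and between AgNPs and Ag+ 0 of 10 were called, where 0.509% were (0.363% higher and 0.146% lower with AgNPs). At the study's own cutoffs, a fold change (FC) of at least 1.5 and an unadjusted p under 0.05, the count was again 0 of 10 in each comparison, beside 0.454%, 1.67% and 0.758% of all named probe sets in the same order. With background shares this low, a list of 10 genes with 0 calls is not set apart from other genes by that count. At an unadjusted p under 0.05 alone, limma gave 1 PGC gene with AgNPs, 3 with Ag+ and 1 for AgNPs against Ag+, beside 8.44%, 13.8% and 8.31% of all named probe sets.

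The sizes of the differences carry more information than the calls. The 10 differences ran from -0.27 to 0.13 with AgNPs against control, from -0.27 to 0.24 with Ag+ against control and from -0.12 to 0.26 with AgNPs against Ag+. Their medians were 0.07, -0.03 and 0.003, and the medians over all named probe sets were -0.008, -0.004 and 0. The median absolute difference of the 10 genes was 0.113 for AgNPs, 0.117 for Ag+ and 0.038 for AgNPs against Ag+, and 0.077, 0.087 and 0.071 over all named probe sets. All 10 95% confidence intervals lay inside a 1.5-fold change in either direction in all 3 comparisons. The interval that reached furthest down was that of Tfap2c, to 1.45-fold lower with AgNPs and likewise with Ag+, and the one that reached furthest up was that of Kit with Ag+, to 1.37-fold higher. Both treatments were set against the same 3 control arrays, so that their differences from control are not independent of each other. An adjusted p that misses the threshold does not show that the groups are alike. These intervals give the range of differences in probe signal that the arrays leave possible. Whether the low signals stand above background was not tested, so for genes of low signal the intervals do not bound a change in RNA. The p-values and intervals measure the spread between these samples only, and the number of arrays limits their precision.

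**Figure D1:**
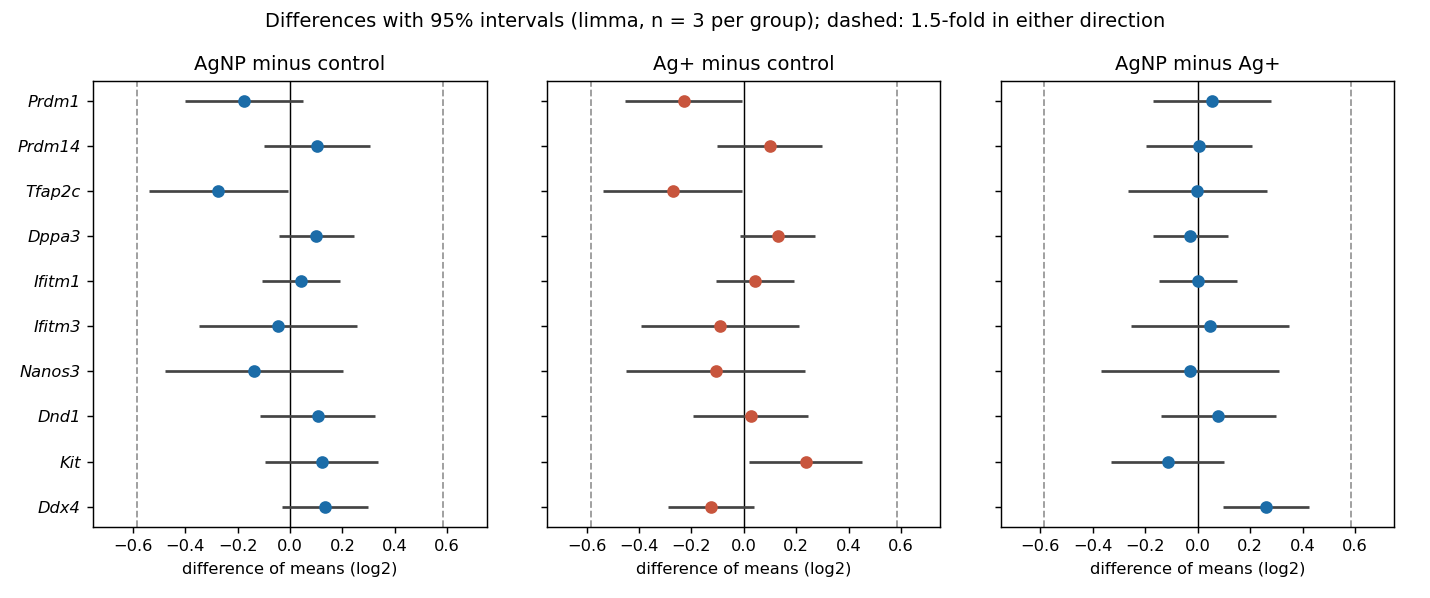
Differences of group means on the log2 scale (points) with 95% confidence intervals from limma (bars) for the 10 PGC genes, in panels for AgNP-treated EBs against control, Ag+-treated EBs against control and AgNP-treated against Ag+-treated EBs (n = 3 arrays per group), with dashed lines at a 1.5-fold change. Every interval ends inside the dashed lines, and those of Tfap2c reach furthest to the left.

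Prdm1, Prdm14 and Tfap2c encode the 3 transcription regulators that together start the PGC programme. Prdm1 (chromosome 10, 44437174 to 44528558 in GRCm38.p6), the repressor BLIMP1, had signals of 7.023, 7.244 and 7.372 in AgNP-treated EBs, 7.235, 7.080 and 7.160 in Ag+-treated EBs and 7.459, 7.461 and 7.244 in control EBs. All 3 Ag+-treated arrays were below all 3 control arrays, narrowly so for control replicate 3, whereas 1 AgNP-treated array lay within the control range and another shared the signal of control replicate 3. The difference was -0.18 ± 0.10 (SE) with AgNPs (limma, adjusted p = 0.66) and -0.23 ± 0.10 with Ag+ (adjusted p = 0.35, unadjusted p = 0.046).

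Tfap2c (chromosome 2, 172545678 to 172558622), which encodes AP-2 gamma and acts downstream of PRDM1, showed the largest difference of the 10 genes from control in either treatment. Its signals were 5.324, 5.185 and 4.969 in AgNP-treated EBs, 5.115, 5.185 and 5.185 in Ag+-treated EBs and 5.541, 5.573 and 5.185 in control EBs. Control replicates 1 and 2 were above all 6 silver-treated arrays, while control replicate 3 lay at the level of the treated arrays, so that the groups overlapped. The difference was -0.27 ± 0.12 with AgNPs (limma, adjusted p = 0.58, unadjusted p = 0.044) and -0.27 ± 0.12 with Ag+ (adjusted p = 0.35, unadjusted p = 0.046), and it was -0.002 between the treatments. The same value, 5.185, was deposited for 4 of the 9 arrays. Such ties between arrays occur in 6 of the 10 PGC genes and in 58% of the named probe sets, and a tie was counted here as an overlap.

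Prdm14 (chromosome 1, 13113428 to 13127163) encodes a regulator of pluripotency and DNA demethylation that few cell types outside pluripotent and germ cells express. It had signals of 4.187, 3.975 and 3.975 in AgNP-treated EBs, 3.938, 3.975 and 4.209 in Ag+-treated EBs and 3.975, 3.877 and 3.975 in control EBs. A single value, 3.975, stood for 5 of the 9 arrays, and the remaining arrays scattered around it with no order by group. The differences were 0.10 with AgNPs (limma, adjusted p = 0.77) and 0.10 with Ag+ (adjusted p = 0.67), opposite in sign to those of Prdm1 and Tfap2c and, like them, not past the threshold.

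**Figure D2:**
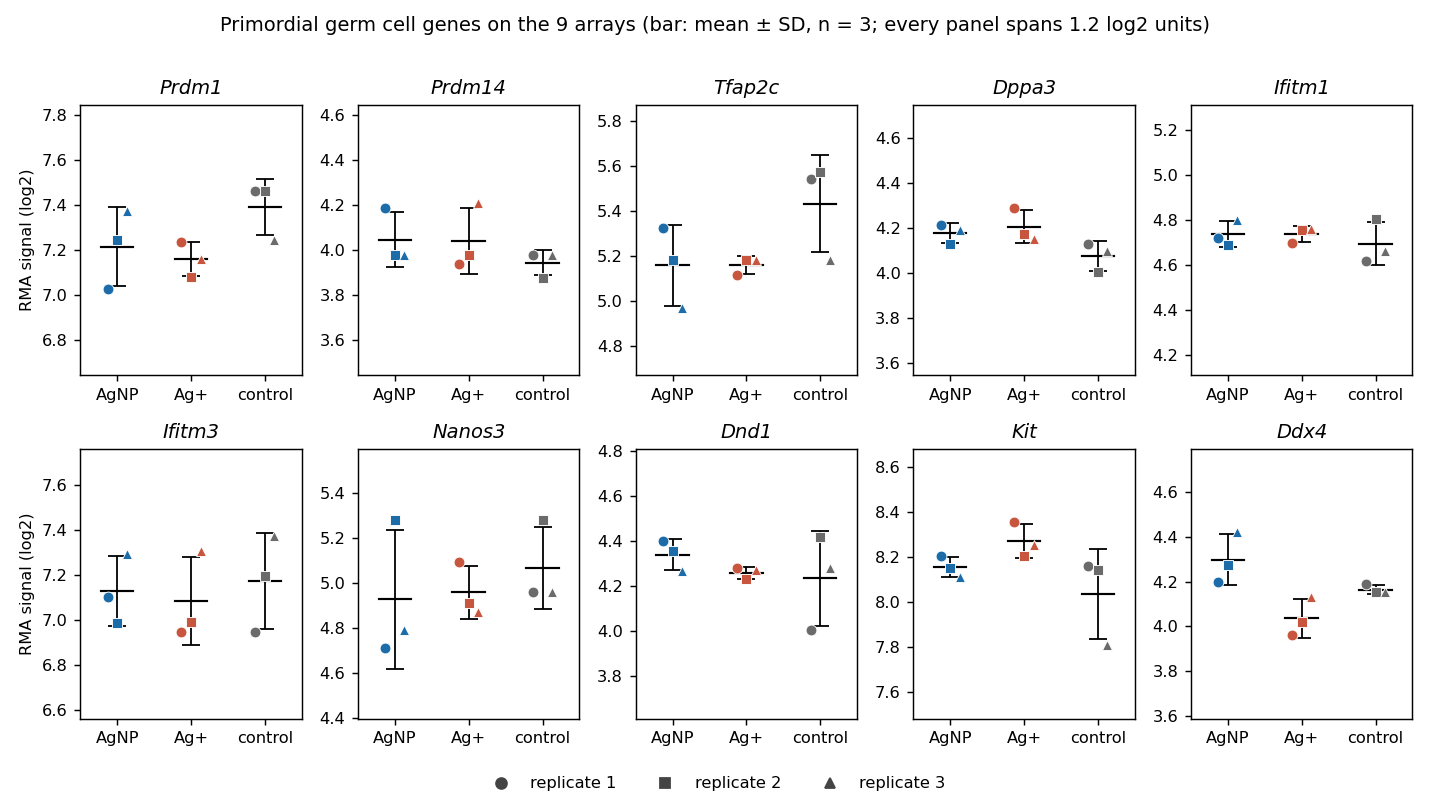
RMA signal (log2, vertical axes, all spanning an equal range) of the 10 PGC genes in AgNP-treated, Ag+-treated and control EBs; points are single arrays with a marker for each replicate number, and bars give the mean ± SD (n = 3). Most groups overlap; Ddx4 is the gene whose AgNP-treated arrays all lie above and whose Ag+-treated arrays all lie below the control arrays, and control replicate 3 sits apart from the other controls in Prdm1, Tfap2c and Kit.

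Dppa3 and the Ifitm genes mark PGCs soon after they are set apart. Dppa3 (chromosome 6, 122626424 to 122630271), also known as Stella, encodes a protein that protects methylated DNA in the early embryo. Its signals were 4.212, 4.125 and 4.190 in AgNP-treated EBs, 4.287, 4.173 and 4.149 in Ag+-treated EBs and 4.125, 4.001 and 4.098 in control EBs. All 3 Ag+-treated arrays were above all control arrays, and the AgNP-treated arrays equalled or exceeded the highest control. The differences were small, 0.10 with AgNPs (limma, adjusted p = 0.68) and 0.13 with Ag+ (adjusted p = 0.42).

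Ifitm1 and Ifitm3 are neighbours on chromosome 7 and encode interferon-induced membrane proteins. Ifitm3, also called fragilis, is a classical surface marker of the cells from which PGCs emerge. Its signals were 7.104, 6.989 and 7.293 in AgNP-treated EBs, 6.948, 6.993 and 7.307 in Ag+-treated EBs and 6.949, 7.196 and 7.376 in control EBs. Each group held both high and low arrays, and the groups overlapped throughout. The differences were -0.05 with AgNPs (limma, adjusted p = 0.94) and -0.09 with Ag+ (adjusted p = 0.81). Ifitm1 had signals of 4.720, 4.689 and 4.802 in AgNP-treated EBs, 4.697, 4.754 and 4.760 in Ag+-treated EBs and 4.618, 4.803 and 4.664 in control EBs. The control arrays enclosed all treated arrays, and the difference was 0.04 for both treatments (adjusted p = 0.87 with AgNPs and 0.83 with Ag+).

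Interferon acts on its target genes through repeated GAAA elements, and 1 promoter window of each of the 2 Ifitm genes is shown here. Neither gene was called. The windows are not placed alike. That of Ifitm1 lies inside the gene as listed (140967429 to 140969827), so the stretch before this gene was not searched. Whether the 2 promoters differ in this element was therefore not tested. The sequences run 5′ to 3′ from 250 bases before to 50 bases after the start in RefSeq (GRCm38.p6), chr7:141010695-141010994 on the minus strand for Ifitm3 and chr7:140967826-140968125 on the plus strand for Ifitm1, and capitals mark GAAANNGAAA, searched on both strands.
Ifitm3: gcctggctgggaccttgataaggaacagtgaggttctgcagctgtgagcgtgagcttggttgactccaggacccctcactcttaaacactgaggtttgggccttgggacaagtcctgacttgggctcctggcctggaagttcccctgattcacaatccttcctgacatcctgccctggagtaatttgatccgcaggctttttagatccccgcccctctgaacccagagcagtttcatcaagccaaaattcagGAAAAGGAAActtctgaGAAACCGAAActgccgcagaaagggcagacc
Ifitm1: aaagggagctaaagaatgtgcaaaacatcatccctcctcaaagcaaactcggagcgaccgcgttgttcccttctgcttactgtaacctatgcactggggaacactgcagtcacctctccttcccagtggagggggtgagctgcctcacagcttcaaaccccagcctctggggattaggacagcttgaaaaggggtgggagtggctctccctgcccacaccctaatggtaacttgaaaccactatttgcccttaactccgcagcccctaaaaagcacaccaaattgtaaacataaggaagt
The Ifitm3 window has 2 matches, which do not overlap and both lie in the 50 bases after the start. The Ifitm1 window has 0, and 3.44% of the 32851 mouse promoters in the same table hold at least 1. The match is a description of the letters and says nothing on binding. Of 4 other Ifitm genes measured, 0 were called in any comparison, and Ifitm2, which has 1 match in its promoter window, differed by -0.05 with AgNPs and by -0.03 with Ag+. Of 9 interferon-stimulated genes measured, 0 were called in any comparison on all 9 arrays (limma), with differences between -0.22 and 0.24 with AgNPs and between -0.59 and 0.37 with Ag+. The lowest of these was that of Usp18, a protease that removes the interferon-induced ISG15 tag, at -0.59 with Ag+ (adjusted p = 0.10). At the study's cutoffs 1 of the 9 genes, Usp18, passed with Ag+ and 0 passed with AgNPs. Usp18 was called lower with Ag+ without control replicate 3 (adjusted p = 0.019), and also without control replicate 3 and AgNP replicate 1 together.

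Promoter windows of 6 of the 10 PGC genes were taken from the same table, and they differ widely in CpG content. Those of Prdm1 (44458699 to 44458998), Ddx4 (112652261 to 112652560) and Ifitm1 lie inside the genes as listed. The stretches before these genes were not searched. Windows on chromosome 18, where Dnd1 lies, were left out of this search. The window of Ddx4 holds 38 CpG dinucleotides, and 95.6% of all promoters hold that many or fewer. Prdm1 has 20, Ifitm1 and Ifitm3 have 5 each and Nanos3 has 3, with a median of 7 over all promoters. Kit has 2 overlapping windows with 20 and 21. The motifs GGCGCC, to which BMP-activated SMAD proteins can bind, and TCACACCT, the core of the T-box element, were found on neither strand of these windows, and 11.9% and 1.28% of all promoters hold them.

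Nanos3, Dnd1 and Kit keep PGCs alive. Nanos3 (chromosome 8, 84173733 to 84176552) encodes an RNA-binding protein that prevents their death during migration. Its signals were 4.715, 5.283 and 4.791 in AgNP-treated EBs, 5.094, 4.912 and 4.875 in Ag+-treated EBs and 4.962, 5.280 and 4.963 in control EBs. AgNP replicate 2 was the highest and AgNP replicate 1 the lowest of all 9 arrays, and this gene had the largest spread within a group, with an SD of 0.308 in AgNP-treated EBs, 0.117 in Ag+-treated EBs and 0.183 in control EBs. The differences were -0.14 with AgNPs (limma, adjusted p = 0.81) and -0.11 with Ag+ (adjusted p = 0.80).

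Dnd1 (chromosome 18, 36763671 to 36766214) encodes an RNA-binding partner of NANOS proteins. It had signals of 4.398, 4.352 and 4.263 in AgNP-treated EBs, 4.278, 4.228 and 4.269 in Ag+-treated EBs and 4.003, 4.415 and 4.278 in control EBs. The control arrays spanned a wider range than all 6 treated arrays and enclosed them. The differences were 0.11 with AgNPs (limma, adjusted p = 0.78) and 0.03 with Ag+ (adjusted p = 0.94).

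Kit (chromosome 5, 75574987 to 75656722) encodes the receptor for stem cell factor and is expressed by PGCs as well as by other stem and progenitor cells. Its signals were 8.206, 8.153 and 8.115 in AgNP-treated EBs, 8.358, 8.206 and 8.256 in Ag+-treated EBs and 8.160, 8.144 and 7.809 in control EBs. All 3 Ag+-treated arrays were above all 3 control arrays, and control replicate 3 was well below the rest. AgNP replicate 1 lay below Ag+ replicate 2 by less than the digits printed, which alone keeps the 2 treated groups from overlapping. The difference was 0.24 ± 0.10 with Ag+ (limma, adjusted p = 0.32, unadjusted p = 0.035), 0.12 ± 0.10 with AgNPs (adjusted p = 0.75) and -0.12 ± 0.10 between AgNPs and Ag+ (adjusted p = 0.81). Kitl, which encodes the KIT ligand, differed by -0.18 with AgNPs and by -0.17 with Ag+ (adjusted p = 0.57 with Ag+). Among 8 genes of PGC migration and survival outside the 10, 1 fell with Ag+: Cxcr4, the chemokine receptor that guides PGCs, at -0.44 (adjusted p = 0.035), and 0 were called with AgNPs. That call was retained only without AgNP replicate 1 or without control replicate 3 when arrays were left out singly, and its adjusted p reached 0.13 without Ag+ replicate 2.

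Ddx4 (chromosome 13, 112598333 to 112652633), the mouse Vasa gene, encodes an RNA helicase of germ cells that is switched on late, in PGCs of the gonad. Its signals were 4.197, 4.274 and 4.420 in AgNP-treated EBs, 3.961, 4.020 and 4.132 in Ag+-treated EBs and 4.187, 4.152 and 4.152 in control EBs. All AgNP-treated arrays were above and all Ag+-treated arrays below every control array, by narrow gaps on either side. The difference between AgNPs and Ag+, 0.26 ± 0.07, had the smallest unadjusted p among the PGC genes (0.0059), and its limma adjusted p over all probe sets was 0.28. Against control the differences were 0.13 with AgNPs (adjusted p = 0.65) and -0.13 with Ag+ (adjusted p = 0.49). Of 20 later germline genes measured, 0 were called in any comparison (limma), with medians of -0.008 with AgNPs, -0.04 with Ag+ and 0.02 for AgNPs against Ag+. The mean signal of these 20 genes was 3.67 to 3.71 on the AgNP-treated arrays, 3.63 to 3.67 on the Ag+-treated arrays and 3.64 to 3.70 on the control arrays. The gene of this list with the smallest p was Tdrd5, which takes part in piRNA-mediated silencing of transposons, at 0.23 with AgNPs (adjusted p = 0.60) and 0.38 with Ag+ (adjusted p = 0.11).

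Across the list, the groups did not overlap in 1 of 10 PGC genes with AgNPs (Ddx4, higher), beside 10.9% of all named probe sets (4.84% higher and 6.09% lower). They did not overlap in 4 of 10 with Ag+ (Dppa3 and Kit higher, Prdm1 and Ddx4 lower), beside 16.5% (6.99% higher and 9.51% lower), and in 2 of 10 between AgNPs and Ag+ (Ddx4 higher, Kit lower with AgNPs), beside 12.3% (6.72% higher and 5.61% lower). The 4 genes that separated with Ag+ moved in both directions, and the largest of the 4 differences in size was that of Kit, 0.24. The mean signal of the 10 genes was 5.41 to 5.43 on AgNP-treated arrays, 5.35 to 5.43 on Ag+-treated arrays and 5.37 to 5.49 on control arrays, and these ranges overlap in all 3 groups.

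Control replicate 3 bore on the 3 genes with the largest differences from control. Without it, the difference of Tfap2c was -0.40 with AgNPs (limma, adjusted p = 0.28) and -0.40 with Ag+ (adjusted p = 0.10), and its intervals reached 1.54-fold lower in both. That of Kit was 0.006 with AgNPs and 0.12 with Ag+, while that of Prdm1 was -0.30 with Ag+. Without control replicate 3 and AgNP replicate 1 together, Tfap2c differed by -0.48 with AgNPs (adjusted p = 0.23) and by -0.40 with Ag+ (adjusted p = 0.067, the lowest of any PGC gene in any setting tried). Over all settings, 0 of 633 recomputed differences of PGC genes were called.

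**Figure D3:**
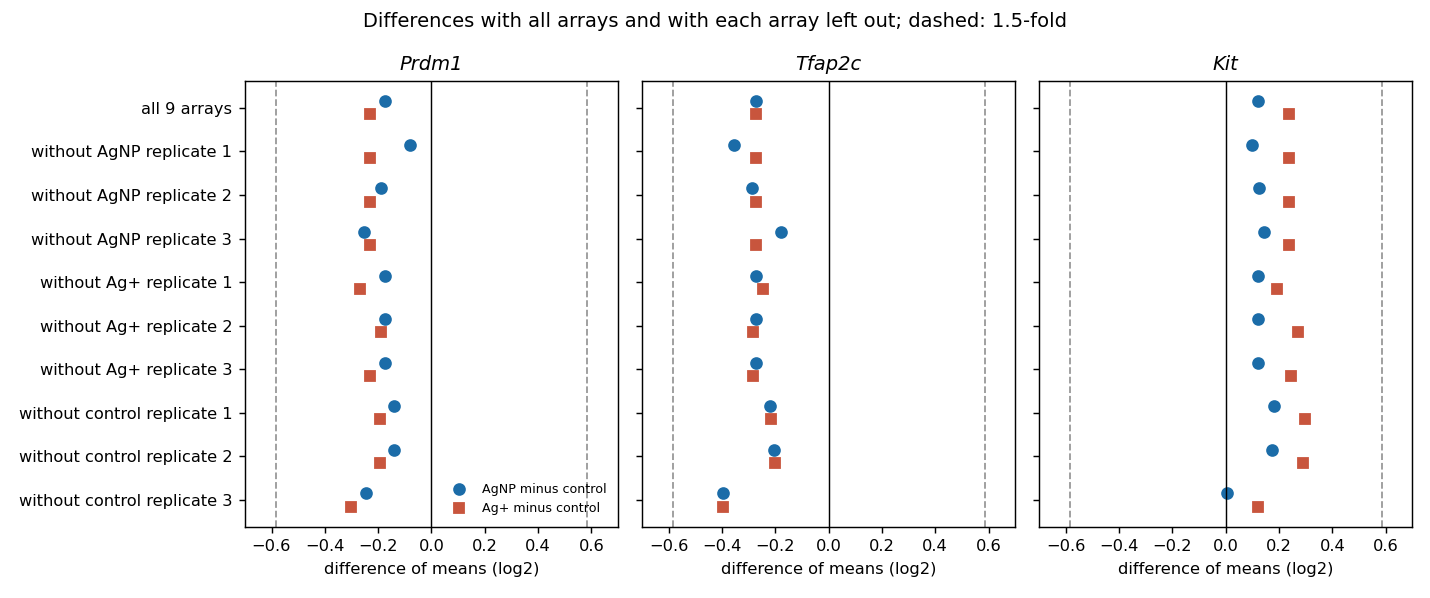
Difference of group means on the log2 scale (horizontal axes) of Prdm1, Tfap2c and Kit, for AgNP minus control (circles) and Ag+ minus control (squares), with all 9 arrays and with each array left out in turn (rows); dashed lines mark a 1.5-fold change. Leaving out control replicate 3 moves Tfap2c to -0.40 for both treatments and Kit with AgNPs to 0.006, and all points stay inside the dashed lines.

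Some genes of the signal that precedes PGC fate fell with Ag+. Of 14 BMP ligands, receptors and SMAD genes, 4 fell with Ag+ (Bmp4, Bmp2, Smad1 and Bmpr2), 0 rose, and 0 were called with AgNPs or between the treatments. The remaining 10 did not pass with Ag+, and the median of the 14 was -0.14 with Ag+ and -0.11 with AgNPs. With AgNPs 7 of the 14 were lower without overlap and 0 higher, beside 6.09% and 4.84% of all named probe sets. With Ag+ these counts were 8 and 0, beside 9.51% and 6.99%. At the study's cutoffs 1 of the 14 passed with AgNPs and 2 with Ag+. The mean signal of the 14 genes was 6.52 to 6.61 on AgNP-treated arrays, 6.41 to 6.47 on Ag+-treated arrays and 6.72 to 6.79 on control arrays, without overlap. Bmp4, the inducing ligand, had a mean signal of 7.94 ± 0.43 in AgNP-treated EBs, 7.12 ± 0.14 in Ag+-treated EBs and 8.91 ± 0.46 in control EBs (SD, n = 3 each). It differed by -1.79 with Ag+ (limma, adjusted p = 0.0059) and by -0.98 with AgNPs (adjusted p = 0.32). Bmp8b, which acts with BMP4 in the embryo, differed by 0.06 with Ag+ (adjusted p = 0.71) and by -0.001 with AgNPs. The calls of Bmp4 and Bmp2 held with every array left out singly (highest adjusted p 0.039 for Bmp4 and 0.008 for Bmp2), whereas they were the only 2 of 14 called without AgNP replicate 2, Ag+ replicate 2, Ag+ replicate 3 or control replicate 2. They were also the 2 called without control replicate 3 and AgNP replicate 1 together.

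Of 7 direct BMP target genes, 6 fell with Ag+ and 1 with AgNPs. For AgNPs against Ag+ 2 of the 7 were called, higher with AgNPs, and 0 or 1 with single arrays left out. Id1, an inhibitor of differentiation that BMP signalling induces, differed by -1.03 with Ag+ (limma, adjusted p = 0.0012) and by -0.38 with AgNPs (adjusted p = 0.36). Smad6, an inhibitor of the pathway that the pathway itself induces, fell by 1.25 with Ag+ (adjusted p = 0.00049) and by 0.79 with AgNPs (adjusted p = 0.040), the AgNP call being lost when any array other than control replicate 1 was left out (highest adjusted p 0.23). Smad7 differed by -0.74 with AgNPs (adjusted p = 0.075) and by -1.46 with Ag+ (adjusted p = 3e-04), and Msx2, a homeobox gene, by -1.12 with AgNPs (adjusted p = 0.23) and by -2.16 with Ag+ (adjusted p = 0.002). With AgNPs 3 of the 7 passed the study's cutoffs, Smad7 was called without Ag+ replicate 2 (adjusted p = 0.044) and Msx2 without control replicate 1 (adjusted p = 0.040). The mean signal of the 7 genes was 6.45 to 6.67 on AgNP-treated arrays, 5.97 to 6.07 on Ag+-treated arrays and 6.88 to 7.25 on control arrays, without overlap. With single arrays left out, 4 to 6 of the 7 remained called with Ag+, the 4 being Id1, Msx2, Smad6 and Smad7 without Ag+ replicate 2 or without control replicate 2. The median difference with Ag+ was -1.11 for these genes and -0.03 for the 10 PGC genes, and the difference between the lists was not tested. Both medians are of probe signal, and whether the low signals among the PGC genes stand above background was not tested either.

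**Figure D4:**
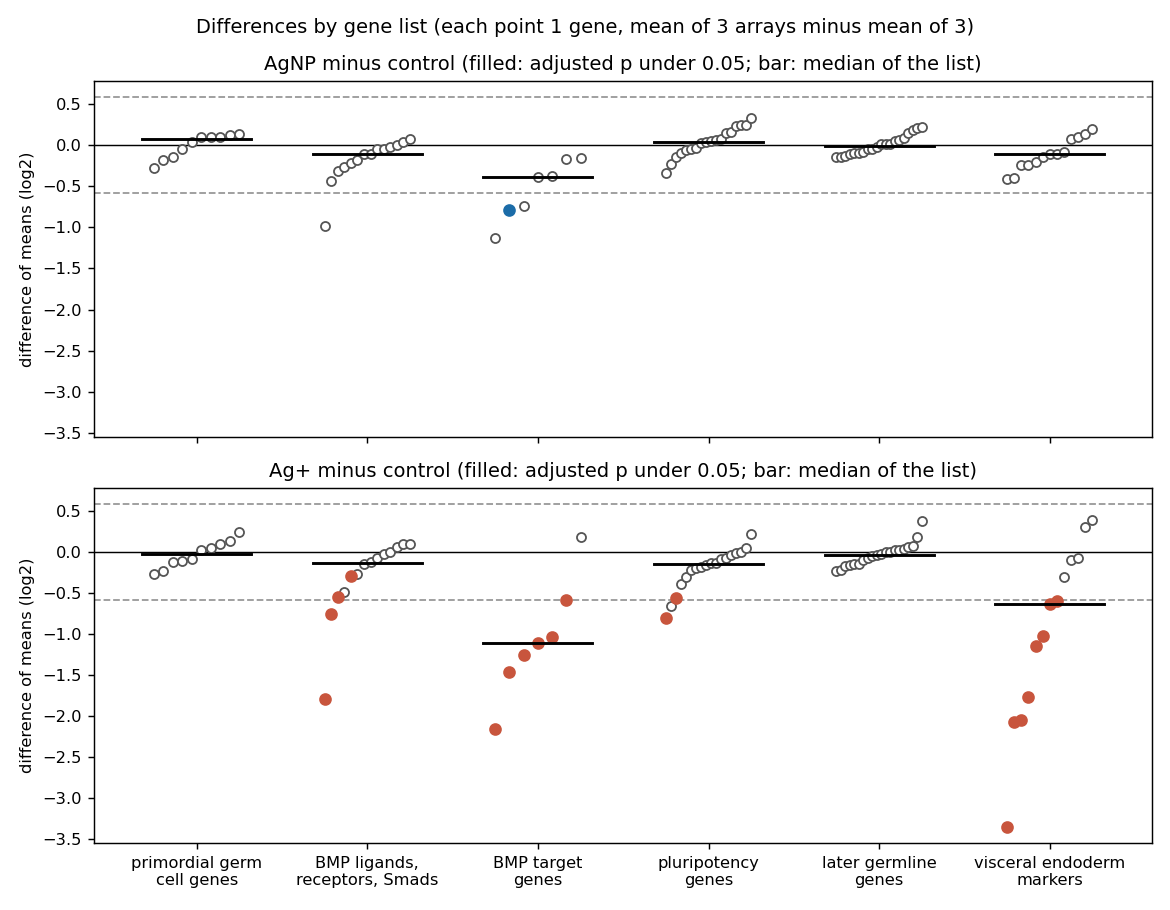
Difference of group means on the log2 scale (vertical axes; each point 1 gene) for AgNP minus control and for Ag+ minus control, by gene list; filled points have an adjusted p under 0.05 in limma, bars mark list medians and dashed lines a 1.5-fold change. The PGC genes and the later germline genes lie inside the dashed lines in both panels, while 6 of 7 BMP target genes and 8 of 13 visceral endoderm markers are filled with Ag+.

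Among 10 partners and gatekeepers of PGC specification, 2 fell with Ag+ and 0 were called with AgNPs. Wnt3, which makes epiblast cells competent for BMP4, differed by -0.84 with Ag+ (limma, adjusted p = 0.0039) and by -0.10 with AgNPs, and was higher with AgNPs than with Ag+ by 0.74 (adjusted p = 0.024). Its call against control held with each array left out singly, and that between the treatments held only without Ag+ replicate 1, control replicate 1 or control replicate 3 (highest adjusted p 0.13). Eomes, a T-box gene of early mesoderm and endoderm, differed by -0.97 with Ag+ (adjusted p = 0.048) and kept its call under single omissions only without control replicate 3, with an adjusted p of 0.17 without control replicate 2. Otx2, a transcription factor that holds back PGC entry, differed by 0.13 with AgNPs and by -0.10 with Ag+ (adjusted p = 0.91). The T gene was not analysed here.

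Of 18 pluripotency genes, which PGCs keep or regain, 2 fell with Ag+ and 0 were called with AgNPs. For AgNPs against Ag+ 1 of the 18 was called, higher with AgNPs, and 0 or 1 with single arrays left out. Dppa2, a chromatin protein of pluripotent cells, differed by -0.80 with Ag+ (limma, adjusted p = 0.026) and by 0.15 with AgNPs, and Klf4, a naive pluripotency factor, by -0.56 (adjusted p = 0.023) and -0.34. Both calls with Ag+ were lost without Ag+ replicate 2, without Ag+ replicate 3 and without any 1 control array, where 0 of 18 were called (highest adjusted p 0.11 for Dppa2 and 0.10 for Klf4). Pou5f1 differed by 0.04 with AgNPs and by -0.16 with Ag+ (adjusted p = 0.60), and Sox2 by 0.23 and 0.21. Nanog differed by 0.25 with AgNPs and by -0.66 with Ag+ (adjusted p = 0.58), with SDs of 0.752 in AgNP-treated EBs, 0.652 in Ag+-treated EBs and 0.751 in control EBs. Of 10 genes of DNA and histone methylation, 0 were called in any comparison on all 9 arrays, the lowest difference being that of the de novo methyltransferase gene Dnmt3b, -0.53 with Ag+ (adjusted p = 0.11), which was called without Ag+ replicate 1 (adjusted p = 0.047).

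Markers of other cell types were called with Ag+ mainly in the visceral endoderm list. Of 13 visceral endoderm markers 8 fell with Ag+ and 0 were called with AgNPs. For AgNPs against Ag+ 7 of the 13 were called, higher with AgNPs, and 3 to 7 with single arrays left out. The mean signal of the 13 markers was 6.84 to 7.02 on AgNP-treated arrays, 5.97 to 6.13 on Ag+-treated arrays and 6.93 to 7.12 on control arrays. Dab2, an endocytic adaptor of that tissue, differed by -1.76 with Ag+ (limma, adjusted p = 0.00013) and by -0.20 with AgNPs. Of 12 blood and endothelial markers 2 fell with Ag+, Runx1 and the receptor gene Kdr, the last at -1.87 (adjusted p = 0.00051), and of 10 trophectoderm markers 1 fell, Hand1 at -2.23 (adjusted p = 0.0016). With AgNPs Kdr differed by -0.79 (adjusted p = 0.20) and Hand1 by -0.99 (adjusted p = 0.29), and both passed the study's cutoffs without being called. Hand1 also marks mesoderm. For AgNPs against Ag+ 1 of the 12 blood and endothelial markers was called, higher with AgNPs, and 0 or 1 with single arrays left out. The mean signals of the blood and endothelial markers were 4.83 to 4.92 on AgNP-treated, 4.78 to 4.91 on Ag+-treated and 5.02 to 5.11 on control arrays, and those of the trophectoderm markers 5.87 to 6.11, 5.89 to 5.90 and 6.02 to 6.34. With Ag+ the median differences were -0.63 for visceral endoderm, 0.02 for blood and endothelial and -0.12 for trophectoderm markers. The highest differences in these lists were 0.38, 0.25 and 0.53. Markers higher with Ag+ without overlap numbered 2, 1 and 1, beside 6.99% of all named probe sets. Those lower without overlap numbered 8, 2 and 4, beside 9.51%. Prdm1 is also expressed in visceral endoderm and Tfap2c in trophectoderm, and the part of these cell types in the signals of the 2 genes was not tested.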

How the data were processed

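Total RNA of EBs was hybridised to 9 Affymetrix Mouse Gene 2.0 ST arrays, 3 per group, and samples were grouped by their labels. The authors summarised 41345 probe sets by RMA in Affymetrix Expression Console 1.3, and the deposited log2 signals were used without further normalization or filter. The labels and the study's methods differ in the amount of RNA labelled per array. EBs that received a lower Ag+ concentration were not analysed here.

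Gene names came from the platform annotation: 23521 probe sets name 1 gene, 1820 several, and 16004 are unnamed here. For each gene, the probe set with the highest mean over the 9 arrays among those naming a single gene was used. The 25341 named probe sets were tested in R 4.3.3 with limma 3.58.1 (lmFit, eBayes, 3 group means, two-sided), with Benjamini-Hochberg adjustment at 0.05 and 95% intervals. The PGC genes, the other lists and the rule for named genes were chosen with earlier results of these data known. From each other list the text names up to 4 called genes of smallest p, or the 1 of smallest p, and always the main BMP, pluripotency and gatekeeper genes. No list was tested as a set. Lists were described by counts and medians. The procedure was tested on simulated data with planted changes of at least 1.5-fold, which says nothing on smaller differences. Promoters came from RefSeq (GRCm38.p6), and all 10 genes matched its gene table by symbol. The alternatives were a block for the replicate number, a separate fit per pair of groups, trend, robust and array-weight options, the methods' ANOVA, signal filters, all probe sets, centring of arrays, a gene's mean probe set and each array left out. Their effects are in the closing section.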

Additional observations from a re-analysis of the deposited data

Results flagged for a closer look

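Ddx4 was set apart because its AgNP-treated arrays all lay above, and its Ag+-treated arrays all lay below, every control array. The difference between AgNPs and Ag+ was 0.26 on the log2 scale (limma, adjusted p = 0.28), so that it did not pass the threshold, and 43 of the 25341 named probe sets (0.17%) had arrays on opposite sides of the controls in the same way. It was 0.20 to 0.31 with 1 array left out at a time.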

How the results depend on the processing

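Across 22 settings, 0 of the 10 PGC genes were called or passed the study's cutoffs in any comparison. Of 633 recomputed differences, 27 turned in direction and 606 were not counted as turned. Ifitm1 for AgNP minus Ag+ was 0 on all 9 arrays, so it had no direction to turn and was counted among the 606. It ran between -0.033 and 0.024 with single arrays left out. The median of the 10 genes for AgNP minus control became 0.021 with array weights, -0.11 for the 4 genes with a mean signal of 5 or more, -0.045 for the 7 genes kept by a filter on the highest group mean, 0.103 after centring on the probe sets of mean signal 5 or more, and 0.042 without control replicate 3 and AgNP replicate 1, an alternative added after the data had been seen. For Ag+ minus control it became -0.16 with the filter at a mean of 5, -0.091 with the filter on the highest group mean, -0.07 with array weights, 0.016 after that centring and 0.019 without the 2 arrays. For AgNP minus Ag+ it became 0.022 with that filter, -0.015 with that centring and 0.029 without the 2 arrays. With single arrays left out the medians ran between -0.003 and 0.082, -0.102 and 0.032, and -0.003 and 0.033 in the 3 comparisons. The filters keep fewer genes by construction, and the cause of the other changes was not tested.

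Directions turned for small differences. With array weights Dnd1 was -0.034 for Ag+ minus control and Prdm14 -0.009 for AgNP minus Ag+. For AgNP minus Ag+, Tfap2c was 0.011 after centring on array medians and Prdm14 -0.012 after centring on the probe sets of mean signal 5 or more. Without the 2 arrays, Ifitm3 was 0.069 and Kit -0.018 for AgNP minus control, Ifitm3 0.01 for Ag+ minus control, and Prdm14 -0.065 and Nanos3 0.077 for AgNP minus Ag+. With single arrays left out, Ifitm3 ran between -0.157 and 0.056 and Dnd1 between -0.009 and 0.197 for AgNP minus control, and Ifitm3 between -0.203 and 0.01 and Dnd1 between -0.088 and 0.118 for Ag+ minus control. For AgNP minus Ag+, the ranges were -0.025 to 0.15 for Prdm1, -0.065 to 0.089 for Prdm14, -0.085 to 0.093 for Tfap2c, -0.054 to 0.014 for Dppa3, -0.037 to 0.158 for Ifitm3 and -0.207 to 0.077 for Nanos3. In the 21 settings with intervals, these passed a 1.5-fold change in 8 of 201 cases with AgNPs, 4 of 201 with Ag+ and 0 of 201 between the treatments, all of Tfap2c or Nanos3 and down to 1.61-fold lower.

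The replicate numbers carry no stated batch, and deviations of same-numbered arrays correlated at -0.056 to 0.233, over 0.1 in 4 of 9 pairs, with 5 of 9 arrays closest to their own number. With the number as a block, 0 PGC genes were called (lowest adjusted p 0.46, 0.24 and 0.23), their medians stayed at 0.072, -0.032 and 0.003, and calls over all probe sets were 20, 623 and 161, against 22, 579 and 129 without it. Among the other named genes, Bmpr2 and Cxcr4 with Ag+ and Smad6 with AgNPs were not called under the block, while Dnmt3b and Smad9 with Ag+ were, as was 1 BMP ligand, receptor or SMAD gene for AgNPs against Ag+. Under the block 1 of 10 trophectoderm markers was called higher with Ag+ than in control EBs, and 1 higher with AgNPs than with Ag+. Of 10 partners and gatekeepers, 2 were called higher with AgNPs than with Ag+, against 1 without the block. Calls over all probe sets ran between 0 (only the groups compared) and 42 (mean of 5 or more) with AgNPs, 239 (the methods' ANOVA) and 837 (mean of 5 or more) with Ag+, and 14 (the methods' ANOVA) and 204 (mean of 5 or more) for AgNPs against Ag+.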

Other observations

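Cd68 and Ncf1, genes of phagocytic cells, and Atf3, a stress-induced transcription factor, had the patterns most like that of Ddx4, the PGC gene with the smallest p, with Pearson r of 0.96, 0.922 and 0.91 over the 9 arrays among 11004 probe sets of at least median spread. These are descriptions over arrays that share the 3 groups, and the highest of many correlations over 9 arrays is high by selection.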
